A study of Mus musculus with 12 samples.

Results

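The vertebrate neuromuscular junction is built by a signalling pathway in the muscle fibre, and 10 genes of that pathway and of the enzymes placed at the synapse are described here. They were taken by symbol from a table of 24528 genes, as junction genes other than those of the acetylcholine receptor subunits, and all 10 passed the filter on low values, with 12194 genes tested in all. They are Musk, Lrp4, Dok7, Rapsn, Etv4, Etv5, Ache, Colq, Ufsp1 and Fgfbp1. Poly-A RNA came from whole gastrocnemius, a calf muscle, of 12 male mice aged 4 months, with 6 mice in each group and 1 library per mouse. WT mice carried the genotype Ank2f/f, a floxed Ank2 gene with no Cre. KO mice carried the same floxed gene with HSA-Cre, a transgene whose Cre recombinase is made in skeletal muscle fibres under a skeletal actin promoter. Both groups are therefore floxed, and the presence of Cre and the loss of Ank2 cannot be told apart. The other cells of the tissue keep an intact Ank2 gene. The comparison asks which junction transcripts differ in muscle whose fibres were targeted for deletion of Ank2, the gene of the membrane adaptor ankyrin-B.

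At the junction, nerve-derived agrin binds LRP4 on the fibre, and LRP4 activates the receptor kinase MuSK. DOK7 binds MuSK inside the fibre and sustains its activity, and rapsyn clusters the acetylcholine receptors beneath the nerve terminal. The few nuclei under the synapse transcribe these genes at a high rate, partly through ETS-family factors such as ETV4 and ETV5. Acetylcholinesterase, anchored in the synaptic cleft by the collagen tail ColQ, ends each transmission. FGFBP1 is a secreted carrier of fibroblast growth factors that helps to maintain mouse junctions.

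Of the 10 genes, 2 rose and 2 fell in KO muscle. Fgfbp1 fell to 23.7% ± 19.3 of the WT mean (SD, n = 6) and Musk to 55.1% ± 18.6, while Ache rose to 162% ± 40.8 and Ufsp1 to 142% ± 34.2. The other 6, including the MuSK partners Lrp4, Dok7 and Rapsn, did not pass the test. Among all tested genes, 6.21% passed it, with 3.12% higher and 3.08% lower (limma with Benjamini-Hochberg adjustment, threshold 0.05). At an unadjusted p at or under 0.05 the count was 5 of 10, against 26% of all tested genes. The 10 differences had a median of 0.07, against -0.01 over all tested genes. With 1 library left out, the Musk call was lost in 10 of 12 cases, that of Ufsp1 in 9 and that of Ache in 2. Fgfbp1 kept its call in all 12.

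Values are on the log2 scale on which the authors deposited them, and differences are KO minus WT on that scale, each with its standard error (SE). The scale compresses differences between low values. Percent levels relative to the WT mean were therefore taken from scaled reads, an approximate inversion of that scale. In bulk tissue, fewer cells of a type and less RNA per cell cannot be told apart. The 12 libraries held 12268065 to 18709281 estimated reads, and KO and WT overlapped in this depth. All 8 genes of a muscle fibre list were measured, with summed scaled reads from 3218368 to 4329304 in WT and 3143018 to 3919970 in KO. Ank2 itself ran from 7.54 to 8.03 in KO and from 8.40 to 9.22 in WT, a difference of -1.15 (SE 0.14, limma adjusted p = 0.000888), and KO held 33.1% ± 7.12 of the WT mean. KO 2 stood apart from the other KO libraries in several of the genes below, although its Ank2 level was 28.9% of the WT mean, within the KO range of 26.3% to 44.3%. Values without it are given beside the results it moved most. Where KO 2 lay at the WT end of the KO values, leaving it out must widen the difference. Such values describe its weight and add no support to a call.

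**Figure D1:**
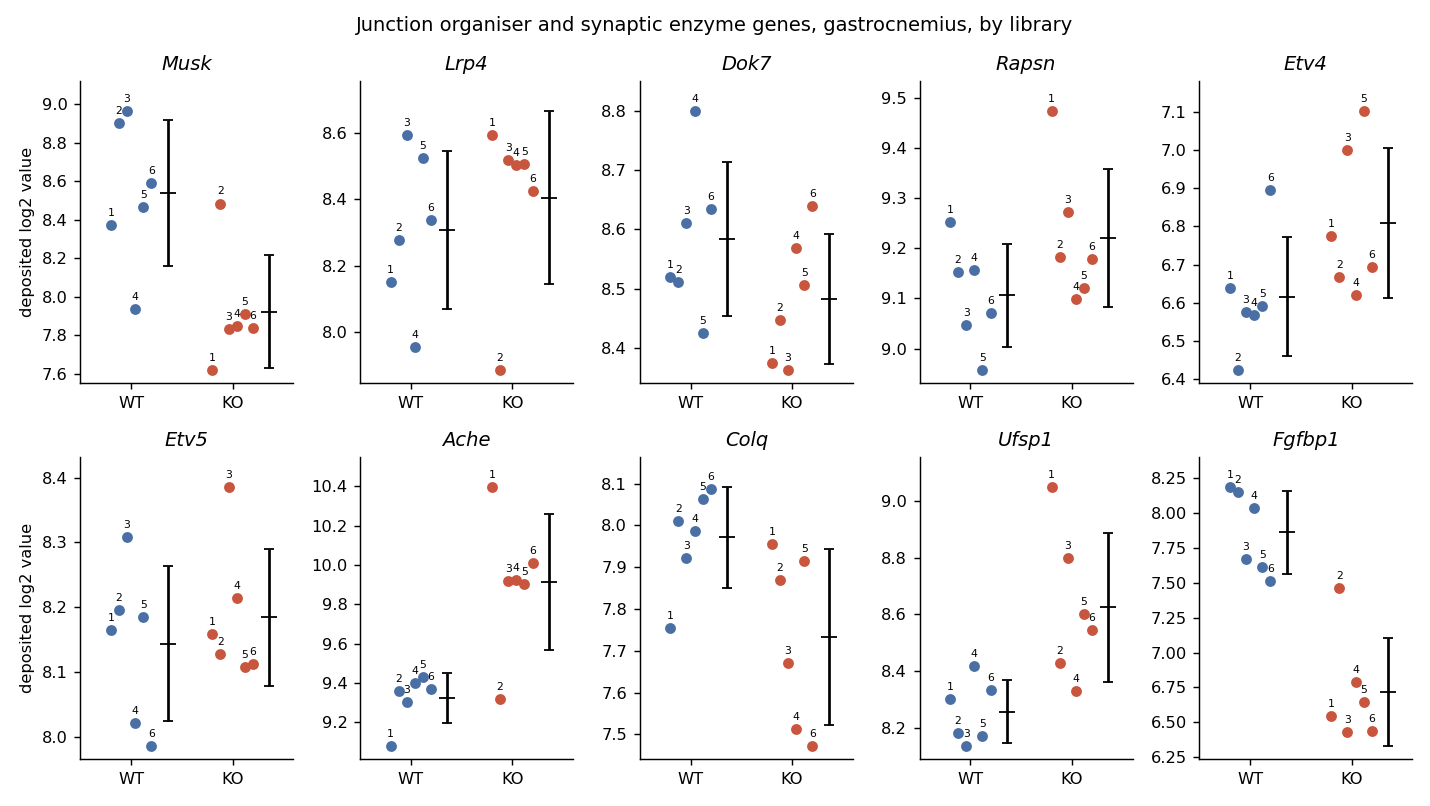
Deposited log2 value of each of the 10 genes (y axis) in each library, WT in blue and KO in red, with the replicate number above each point and the group mean ± SD (n = 6) beside it in black; each panel has its own y range. KO values of Fgfbp1 lie below all WT values, and KO 2 lies nearest to WT for Fgfbp1 (7.46) and among the WT values for Musk (8.48) and Ache (9.32).

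Musk, the receptor kinase that receives the agrin signal, was lower in KO. Its value ran from 7.94 through a median of 8.53 to 8.96 in WT, and from 7.62 through 7.84 to 8.48 in KO. All 6 KO libraries lay below the WT median. WT 4 held the lowest WT value, at 7.94, and the groups overlapped only through KO 2, which held the highest KO value. The other 5 KO libraries lay between 7.62 and 7.91, below every WT library. The difference was -0.62 (SE 0.17, limma adjusted p = 0.0498; exact two-sided permutation p = 0.0173), with 135 to 382 estimated reads behind each value. The call was marginal. It held without KO 2 (-0.73, adjusted p = 0.00693) and without WT 4 (-0.74, adjusted p = 0.0116). Leaving out either must widen the difference, since each was the value of its group nearest the other group. The call was lost without any 1 of the other 10 libraries (adjusted p from 0.0677 without KO 4 to 0.123 without KO 1, with differences from -0.65 to -0.53). With each library centred on its median it was also missed (adjusted p = 0.0521).

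Musk lies on the plus strand of chromosome 4 from 58285960 to 58374303 (mm10, GENCODE M21). The bases just before its first exon are shown because myogenic factors, which drive receptor and Musk transcription in muscle, bind E-boxes (CANNTG, the same on both strands). The window is chr4:58285712-58285959, plus strand, from RefSeq on GRCm38.p6, with E-boxes in capitals.
Musk: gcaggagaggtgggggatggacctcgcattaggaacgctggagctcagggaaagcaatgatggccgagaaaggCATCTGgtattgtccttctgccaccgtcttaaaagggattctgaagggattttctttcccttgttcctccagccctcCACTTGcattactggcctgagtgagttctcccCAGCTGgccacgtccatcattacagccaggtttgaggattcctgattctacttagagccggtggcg
The stretch of 248 bases held 3 E-boxes. It held no N-box (CCGGAA, either strand), the element bound by ETS-family factors in several synaptic genes. Over 32851 promoter windows of 300 bases, 72.3% held an E-box and 14.9% held an N-box, so the E-boxes are a common feature. A match is a run of letters and not a bound site.

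Lrp4 encodes the agrin receptor and partner of MuSK. Its value ran from 7.95 through 8.31 to 8.59 in WT and from 7.89 through 8.50 to 8.59 in KO. Of the 6 KO libraries, 5 lay above the WT median, from 8.43 to 8.59, whereas KO 2 held the lowest value of all 12 libraries. The difference was 0.10 (SE 0.12, limma adjusted p = 0.641), with a 95% interval from -0.16 to 0.36, and without KO 2 it was 0.20 (adjusted p = 0.184). Neither passed the test.

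Dok7, the cytoplasmic activator of MuSK, ran from 8.42 through 8.57 to 8.80 in WT and from 8.36 through 8.48 to 8.64 in KO. The difference was -0.10 (SE 0.07, limma adjusted p = 0.403, 95% interval -0.26 to 0.06). Rapsn, the receptor-clustering scaffold, ran from 8.96 through 9.11 to 9.25 in WT and from 9.10 through 9.18 to 9.47 in KO, with KO 1 highest. Its difference was 0.11 (SE 0.08, adjusted p = 0.343, 95% interval -0.04 to 0.27). In both genes 4 of 6 KO libraries lay inside the WT range. The intervals of Lrp4, Dok7 and Rapsn all include 0, which leaves small changes possible in either direction. Within each library, the ratio of Musk to Lrp4 (scaled reads per kb of exon, a description chosen after the values were seen) ran from 2.64 to 4.85 in WT. In KO it was 4.96 in KO 2, above every WT library, and its KO median was 1.52.

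**Figure D2:**
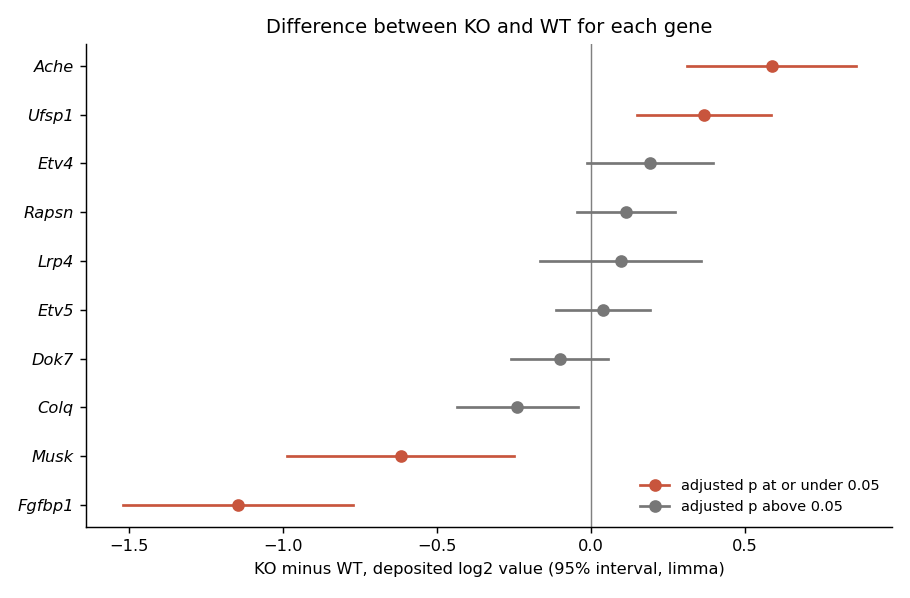
KO minus WT difference of each gene on the deposited log2 scale (x axis) with its 95% interval from limma; red marks an adjusted p at or under 0.05. Fgfbp1 (-1.14) and Musk (-0.62) lie below 0, Ufsp1 (0.37) and Ache (0.59) above, and the intervals of Dok7, Etv5, Lrp4, Rapsn and Etv4 cross 0.

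Etv4 and Etv5 encode related ETS-family transcription factors that act downstream of growth factor and ERK signalling. Etv5 ran from 7.99 through 8.17 to 8.31 in WT and from 8.11 through 8.14 to 8.39 in KO, and 5 of 6 KO libraries lay inside the WT range. Its difference was 0.04 (SE 0.07, limma adjusted p = 0.752, 95% interval -0.11 to 0.19). Etv4 had the fewest reads of the 10 in WT, with 16.9 to 59.0 estimated reads per library over both groups. In KO, Fgfbp1 was similarly low, at 19.0 to 81.3 estimated reads. Etv4 ran from 6.42 through 6.58 to 6.90 in WT and from 6.62 through 6.73 to 7.10 in KO. All 6 KO libraries lay above the WT median, and KO 5 and KO 3, at 7.10 and 7.00, lay above every WT library. The difference of 0.19 (SE 0.10, adjusted p = 0.217; exact permutation p = 0.0952) did not pass. With a pseudocount of 1 on scaled reads it was 0.49 (adjusted p = 0.212), which did not pass either, and KO held 144% ± 49.5 of the WT mean (SD, n = 6).

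Ache, the gene of acetylcholinesterase, was higher in KO. It ran from 9.08 through a median of 9.37 to 9.43 in WT and from 9.32 through 9.92 to 10.40 in KO. In KO, 5 libraries lay between 9.91 and 10.40, above every WT library, and KO 2 lay within the WT range at 99.3% of the WT mean. The rise was 0.59 (SE 0.13, limma adjusted p = 0.0201; exact permutation p = 0.0108), and without KO 2 it was 0.71 (adjusted p = 0.000267). The call was lost without WT 3 (adjusted p = 0.0505) or KO 6 (0.0525), with differences of 0.58 and 0.57. Exons of Ache on the plus strand share 98 of 4623 exonic bases with Gm42456 of the minus strand, and the library kit did not mark strand. Reads from the shared bases cannot be assigned to either gene.

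Colq encodes the collagen tail that anchors the enzyme. It ran from 7.75 through 8.00 to 8.09 in WT and from 7.47 through 7.77 to 7.96 in KO. All 6 KO libraries lay below the WT median, and 3 of them lay inside the WT range. The difference of -0.24 (SE 0.09, limma adjusted p = 0.123, unadjusted p = 0.0204; exact permutation p = 0.0433) did not pass. Within each library, the ratio of Ache to Colq (scaled reads per kb of exon, a description chosen after the values were seen) ran from 2.53 through a median of 2.77 to 2.87 in WT and from 3.04 through 6.18 to 8.09 in KO. Exons of Colq share 199 bases, 5.23% of its exonic length, with Gm49387 of the same strand, and reads there cannot be assigned to either gene. The lowest KO ratio was that of KO 2, and it still lay above every WT ratio.

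Ufsp1 encodes a protease that matures the ubiquitin-like modifier UFM1, and its transcript is enriched in nuclei under the synapse. It ran from 8.14 through 8.24 to 8.42 in WT and from 8.33 through 8.57 to 9.05 in KO. All 6 KO libraries lay above the WT median, 5 of them above every WT library, and KO 4 alone lay inside the WT range. The rise was 0.37 (SE 0.10, limma adjusted p = 0.046; exact permutation p = 0.00649). It held without KO 2 (0.41, adjusted p = 0.0205), WT 4 (0.40, adjusted p = 0.04) or KO 4 (0.43, adjusted p = 0.0255), and it was lost without any 1 of the other 9 libraries (adjusted p from 0.0549 without KO 5 to 0.108 without WT 3, with differences from 0.28 without KO 1 to 0.38). It was also missed with limma-voom on estimated reads (adjusted p = 0.0526), without the variance trend (0.0535) and without the filter (0.0501).

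Ufsp1 is the next gene after Ache on the same strand of chromosome 5. Ache spans 137287519 to 137294466 and Ufsp1 spans 137294629 to 137295665 as a single exon (mm10, GENCODE M21). The 162 bases between them are shown because they are all that separates the 2 genes that rose. They lie at chr5:137294467-137294628, plus strand (RefSeq, GRCm38.p6).
Ufsp1: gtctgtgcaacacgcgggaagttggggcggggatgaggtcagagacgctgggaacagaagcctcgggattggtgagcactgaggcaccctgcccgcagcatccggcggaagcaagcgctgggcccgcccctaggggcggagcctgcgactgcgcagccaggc
The interval held neither an E-box nor an N-box, so it has no capitals, and 69.1% of its bases were G or C. Of the 6 KO libraries, KO 1 was highest for both genes, at 228% of the WT mean for Ache and 200.0% for Ufsp1. KO 4 parted them, with 159% for Ache and 107% for Ufsp1. The place of KO 1 was not particular to this locus. It was also the highest KO library for Lrp4, Rapsn and every receptor subunit gene. Pearson's r of Ufsp1 over the 12 libraries was 0.82 with Rapsn, on chromosome 2, and 0.81 with Ache. For deviations from the group means it was 0.79 with Rapsn and 0.59 with Ache. How reads that run past the end of Ache were assigned is not given in the sources used here, and the part of such reads in the Ufsp1 values was not tested.

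**Figure D3:**
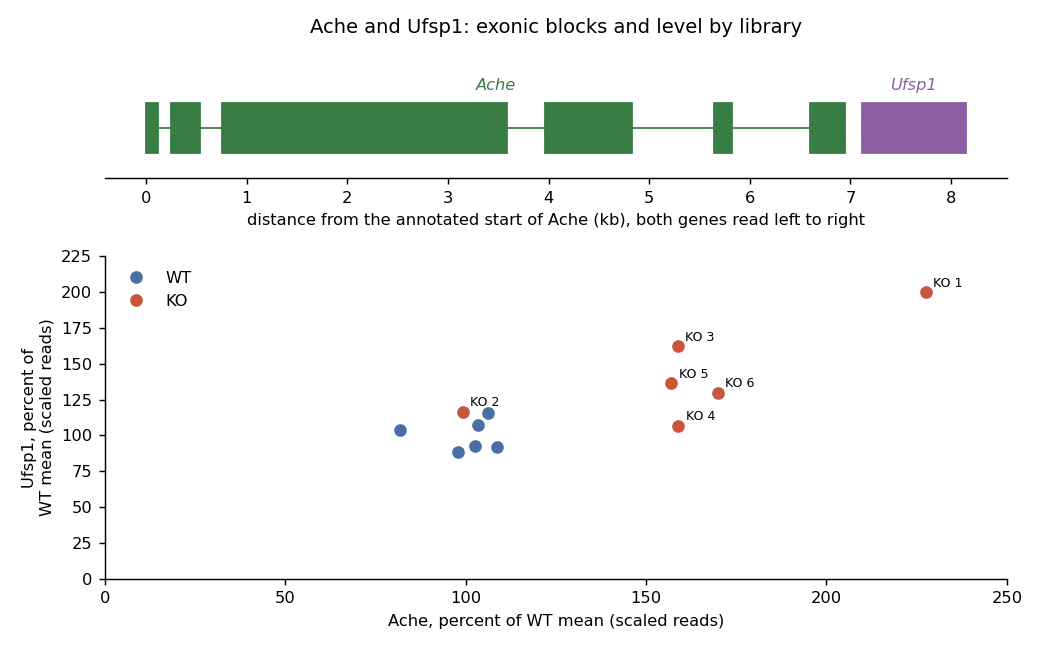
Top, exonic blocks of Ache (green) and Ufsp1 (purple) by distance in kb from the annotated start of Ache, to scale, with 162 bases between the genes. Bottom, Ufsp1 against Ache as a percent of the WT mean in scaled reads, 1 point per library with KO libraries named; KO 2 lies with the WT libraries on the Ache axis and KO 1 is highest on both.

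Fgfbp1 showed the largest difference of the 10 genes. It ran from 7.52 through a median of 7.85 to 8.19 in WT and from 6.43 through 6.60 to 7.46 in KO. Every KO library lay below every WT library, the only such case among the 10, against 2.48% of all tested genes with groups that did not overlap (1.27% with KO above and 1.21% with KO below). In scaled reads, 5 KO libraries held 11.5% to 23.7% of the WT mean and KO 2 held 62.1%, next to the lowest WT library at 66.1%. The fall was -1.14 (SE 0.17, limma adjusted p = 0.00403), and the exact permutation test gave p = 0.00216, its lower limit for 6 mice against 6. Leaving out each library in turn kept the call, with differences from -1.29 without KO 2 to -1.08 without WT 1 and adjusted p from 1.6e-05 to 0.0164. The deposited scale understated the fall, since 19.0 to 195 estimated reads stood behind the values. With a pseudocount of 1 on scaled reads the difference was -2.26 (adjusted p = 0.00505), and with limma-voom on estimated reads it was -2.34 (adjusted p = 0.00364).

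Fgfbp1 is a minus-strand gene of chromosome 5, spanning 43978858 to 43981779 (mm10, GENCODE M21), far from the Ache locus. The bases before its first exon are shown beside those of Musk, the other gene that fell. They lie at chr5:43981780-43982049, minus strand (RefSeq, GRCm38.p6), with E-boxes in capitals.
Fgfbp1: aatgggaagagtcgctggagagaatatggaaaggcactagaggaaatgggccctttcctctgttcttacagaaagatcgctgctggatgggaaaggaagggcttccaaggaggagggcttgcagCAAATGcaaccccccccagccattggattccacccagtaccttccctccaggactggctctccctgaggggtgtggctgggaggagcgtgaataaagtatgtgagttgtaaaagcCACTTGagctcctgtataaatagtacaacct
This stretch of 270 bases held 2 E-boxes and no N-box. The letters CACTTG occur in both the Musk and the Fgfbp1 stretch, and the share of all windows that hold them was not counted. RefSeq windows were found for 6 of the 10 genes. None of their 8 windows held an N-box. E-boxes were not confined to the genes that fell. Their number was 3 for Musk, 2 for Fgfbp1, 1 for Ache and 0 for Ufsp1. Dok7 windows held 1 and 0, and Etv5 windows held 2 and 0.

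**Figure D4:**
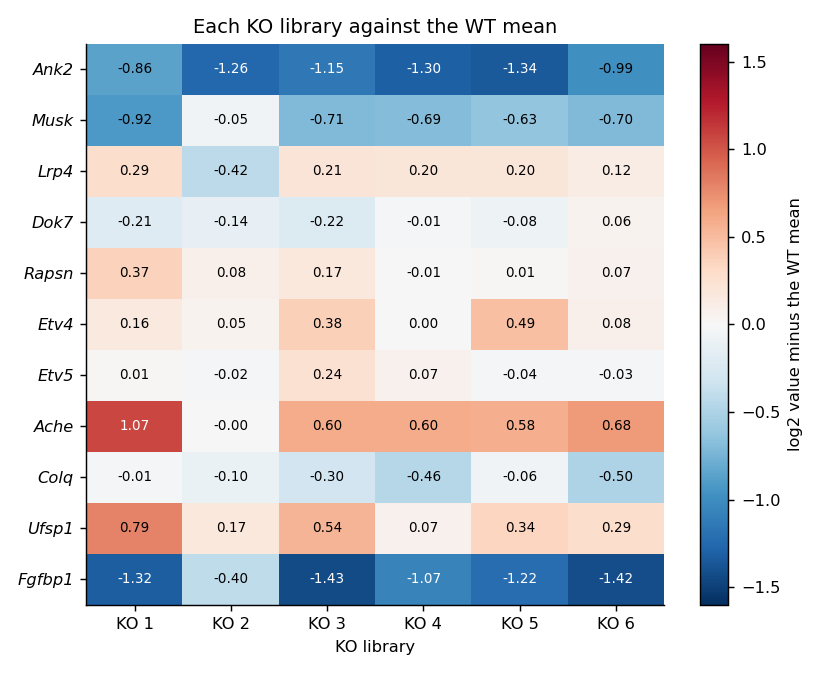
Each KO library's deposited log2 value minus the WT mean, for Ank2 and the 10 genes, with red above and blue below the WT mean. KO 2 stands near 0 for Musk and Ache and at -0.40 for Fgfbp1, although its Ank2 value is -1.26, within the KO range.

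The KO libraries differed in how many of the 10 genes lay inside the WT range. The count was 7 in KO 2, 6 in KO 4, 5 in KO 5 and KO 6, 4 in KO 1 and 1 in KO 3. The share of all tested genes inside the WT range was not taken for each library, so these counts have no baseline. Of the 4 genes that passed the test, 2 lay inside the WT range in KO 2 (Musk and Ache), 1 in KO 4 (Ufsp1) and none in the other KO libraries. Without KO 2, the same 4 genes passed the test.

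Levels of different genes were compared per kb of exon, in scaled reads. In WT, Rapsn was highest at 256 ± 21.7 (SD, n = 6), followed by Ufsp1 at 212 ± 22.4, and these ranges overlapped. Ache followed at 119 ± 11.6, below every Ufsp1 value. Musk at 77.7 ± 24.8, Dok7 at 69.2 ± 8.19 and Fgfbp1 at 67.2 ± 20.5 overlapped with one another. The Musk range also overlapped with that of Ache. Etv5 at 47.9 ± 5.56 overlapped with Colq at 43.6 ± 5.16, and both overlapped with Musk and Fgfbp1. Lrp4 at 22.1 ± 4.80 and Etv4 at 8.62 ± 2.81 were the lowest, each separate from the gene before it. In KO, Fgfbp1 at 15.9 ± 13.0 ranked below Lrp4 at 24.3 ± 5.01, and Musk at 42.8 ± 14.5 ranked below Etv5 at 49.8 ± 5.35, with overlapping ranges in both pairs. Ufsp1 at 300.4 ± 72.4 and Rapsn at 282 ± 33.1 were then the highest and overlapped. The exonic length of Ache includes an annotated retained intron, which lowers its level per kb.

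Of the 5 receptor subunit genes 4 were tested, and 3 of these rose. Chrna1 ran from 8.92 to 10.90 in KO against 8.17 to 8.30 in WT (1.96, SE 0.30, limma adjusted p = 0.00711), Chrnb1 gave 0.58 (adjusted p = 0.0265) and Chrne 0.37 (adjusted p = 0.0438), while Chrnd gave 0.28 (adjusted p = 0.167). KO 2 was the lowest KO library for Chrna1 and Chrnb1, whose differences without it were 2.22 (adjusted p = 8.63e-06) and 0.67 (0.00324), and Chrnb1 and Chrne overlapped between groups. Each of these 2 calls was lost without any 1 of 7 libraries (adjusted p up to 0.0676 for Chrnb1 and 0.102 for Chrne), and that of Chrne also with limma-voom (0.0525) and without the variance trend (0.0518). Chrng, the fetal subunit, fell under the filter and ran from 5.78 to 5.97 in WT and 5.96 to 7.09 in KO.

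Lists of genes that work with the 10 were examined for whether they moved too, and most held no gene that passed. Among 14 further genes of agrin and MuSK signalling, such as the adaptor genes Crk and Crkl that bind DOK7, none passed in either direction (7 at an unadjusted p at or under 0.05, smallest limma adjusted p = 0.0672), with a median of 0.01. The nearest was Macf1, a cytoskeletal linker (0.28, adjusted p = 0.0672), which passed without KO 2 (0.33, adjusted p = 0.0145), and the agrin gene Agrn gave 0.19 (adjusted p = 0.344). None of 15 genes of the synaptic basal lamina and cholinesterase partners passed (6 unadjusted, smallest adjusted p = 0.108), with a median of -0.08. That list holds Bche, of butyrylcholinesterase, at -0.35 (adjusted p = 0.151), and Prima1, the membrane anchor of acetylcholinesterase, at -0.24 (adjusted p = 0.161). Bche passed without WT 4 (-0.47, adjusted p = 0.0256) and Prima1 without KO 2 (-0.31, adjusted p = 0.0418). None of 9 postsynaptic scaffold genes passed (3 unadjusted, smallest adjusted p = 0.114), with a median of -0.14.

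The genes around Etv4 and Etv5 gave no call either. Of 8 genes of neuregulin, its ERBB receptors and GABP, 6 were tested and none passed (3 unadjusted), with a median of -0.13. Etv1, the third close relative of Etv4 and Etv5, gave -0.32 (limma adjusted p = 0.113), and Gabpa, an ETS factor of synaptic genes, -0.27 (adjusted p = 0.11). Of 8 feedback genes of the ERK pathway, none passed (2 unadjusted), with a median of -0.11 and the nearest being Il17rd at -0.22 (adjusted p = 0.0941).

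Around Fgfbp1, 7 of 11 genes of fibroblast growth factors and their receptors were tested and none passed (1 unadjusted), with a median of 0.08. Fgf7, a ligand that FGFBP1 binds, gave 0.01 (limma adjusted p = 0.934). The ligands Fgf10 and Fgf22, which it is also known to bind, were under the filter: Fgf10 had at most 11.0 estimated reads in a library, and Fgf22 was at the floor in all 12. Around Ufsp1, none of 7 genes of UFM1 conjugation passed (1 unadjusted), with a median of 0.02. Its paralog Ufsp2 gave 0.04 (adjusted p = 0.727).

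A list of other transcripts enriched under the synapse, which left out the receptor subunits above, gave no call. Of 6 such genes 4 were tested and none passed (1 unadjusted), with a median of -0.10, and Phldb2 was nearest at -0.19 (limma adjusted p = 0.122). None of 5 glycosylation genes mutated in congenital myasthenia passed (2 unadjusted), with a median of 0.03. In a list of 10 genes of the denervation response, which held neither the 10 genes nor the receptor subunits, 4 of 9 tested genes rose and none fell, with a median of 0.36. They were Gadd45a (1.13, adjusted p = 0.0138), Ncam1 (0.36, adjusted p = 0.0231), Runx1 (0.63, adjusted p = 0.0403) and Myh8 (1.18, adjusted p = 0.0415). KO 2 was the lowest KO library in all 4, and its Ncam1, Runx1 and Myh8 values, 7.54, 6.42 and 6.51, lay inside the WT ranges. Without KO 2 all 4 passed, with differences of 1.26 for Gadd45a (adjusted p = 0.000981), 0.42 for Ncam1 (0.0023), 0.78 for Runx1 (0.000314) and 1.44 for Myh8 (0.000133). The Runx1 and Myh8 calls were lost without most single libraries, with limma-voom (adjusted p = 0.0751 and 0.111) and with the replicate number as a block (0.054 and 0.0705), and that of Runx1 also with a pseudocount of 1 (0.0501). Myog, the myogenin gene induced by loss of nerve activity, gave 0.20 (adjusted p = 0.308).

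**Figure D5:**
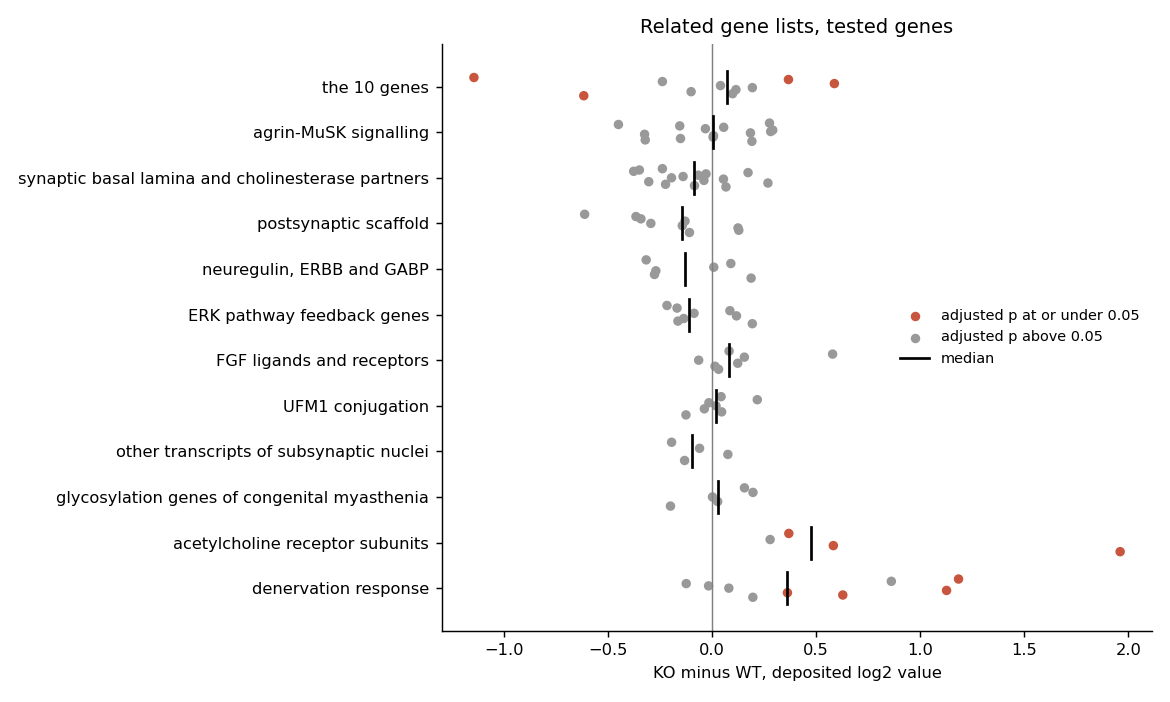
KO minus WT difference on the deposited log2 scale (x axis) of every tested gene in the 10 genes and in each related list, 1 point per gene, red where the adjusted p was at or under 0.05, with a black bar at the list median. Calls lie in the 10 genes, the acetylcholine receptor subunits (3) and the denervation response (4), and in none of the other lists.

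Markers of other cells were measured beside these results, and their part in them was not tested. All 9 Schwann cell markers were tested and none passed (1 unadjusted), and their summed scaled reads ran from 1156 to 3883 in WT and 542 to 7181 in KO. The sum of 7 slow-fibre genes ran from 5878 to 58045 in WT and 1125 to 15459 in KO, and all 7 differences were negative without passing (5 unadjusted). In KO 2 that sum was 2157, below every WT library. Of 6 endothelial markers 1 fell, Flt1 (-0.50, limma adjusted p = 0.0347), and all 6 estimates were negative, with sums from 3636 to 4980 in WT and 2837 to 4491 in KO. Of 4 fibroblast and 4 macrophage markers none passed (0 and 1 unadjusted). Their sums ran from 3525 to 8227 and from 109 to 397 in WT, and from 4543 to 8273 and from 126 to 355 in KO. Of 4 satellite cell markers 3 were tested, and Cdh15 fell (-0.37, adjusted p = 0.0341). Pax7 gave 0.06 (adjusted p = 0.67) and Myf5 -0.002 (adjusted p = 0.989), and neither passed. The sums ran from 387 to 491 in WT and 295 to 419 in KO, and Cdh15 supplied most of the reads in them. Of 4 adipocyte markers only Adipoq passed the filter, and it fell (-0.34, adjusted p = 0.0431), with sums from 15.1 to 69.0 in WT and 4.59 to 35.3 in KO. No marker was at 0 in all 12 libraries.

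For each of the 10 genes, the genes whose values followed it most closely over the 12 libraries were sought among 11659 tested genes with ordinary symbols. The measure was Pearson's r over 12 libraries of both groups, with r of the deviations from the group means second. Libraries share their depth and makeup, so these values describe likeness and carry no test. Fgfbp1 was nearest to Mss51 (0.98 and 0.94) and Cbfb (0.97 and 0.90). Musk was nearest to Erlec1 (0.96 and 0.95) and Ung (0.93 and 0.86). Ache was nearest to Mt3 (0.96 and 0.92) and Msto1 (0.96 and 0.94), and Ufsp1 to Snrnp70 (0.96 and 0.94) and Jmjd8 (0.96 and 0.91). Rapsn followed Safb2 (0.94 and 0.93) and Gltscr2 (0.94 and 0.94), Dok7 followed Psmd12 (0.91 and 0.90) and Cd164 (0.89 and 0.87), and Lrp4 followed Atp8b1 (0.90 and 0.91) and Pde2a (0.88 and 0.92). Etv4 followed Fam92a (0.91 and 0.88) and Phb (0.86 and 0.82), Etv5 followed Apaf1 (0.84 and 0.83) and Zfp266 (0.83 and 0.84), and Colq, with the weakest likeness, Rictor (0.83 and 0.71) and Smad6 (0.82 and 0.71). None of the 10 genes was among the nearest of another.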

How the data were processed

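Per the submitters' processing notes, reads went through fastp, STAR and featureCounts on mm10; tool versions, gene annotation and normalization were not given in the sources used here. The authors deposited 1 log2 value per gene and library on an unnamed scale, with 1 lowest value (5.57) shared by all 12 libraries, the shape of a variance-stabilizing transformation. That scale was inverted in closed form to scaled reads, and the spacing of low values in each library was taken as 1 read, so that 91.9% to 95.1% of low values fell within 0.1 of a whole number. Estimated reads are approximate and served the filter, depth, percent levels and some alternatives only. PCR duplicates were not identified.

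The 12194 genes that reached 10 estimated reads in 6 or more libraries were fitted on the deposited values with limma 3.58.1 (R 4.3.3), with group as the only term, a variance trend, robust moderation, two-sided p-values and Benjamini-Hochberg adjustment over all tested genes at 0.05. Single values were compared by an exact two-sided permutation test over libraries. The fit was tested on simulated data. Exonic lengths and positions come from GENCODE M21 and promoter windows from RefSeq on GRCm38.p6. Replicates are separate mice, and same-numbered libraries are not stated to be paired.

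The 10 genes, the lists and the alternatives were chosen with earlier results of these data known. The named genes were the 10, Ank2, the receptor subunits, up to 4 called genes of each list and the 2 most alike genes for each of the 10; other uncalled list genes were named for their role or their p after their values were seen, and the ratios were likewise chosen then. Alternatives covered moderation, library weights, scale, normalization, filter, a replicate block and leaving out each library.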

Additional observations from a re-analysis of the deposited data

Results flagged for a closer look

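In 4 of 30 groups of 6 libraries, over 15 genes, 1 library lay far from the other 5, where chance flags about 1 in 20. In 3 of these the library was KO 2: its Musk value was 8.48 with the next KO library at 7.91, its Fgfbp1 value was 7.46 with the next at 6.79, and its Lrp4 value was 7.89, below the next at 8.43. The other was Ache in WT 1, at 9.08 below the next WT library at 9.30. Musk and Fgfbp1 in KO 2 were high and Lrp4 was low. Without KO 2, the differences of all 3 were larger in size, which must follow from its place in each group.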

How the results depend on the processing

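The 10 genes kept their direction under all 10 other settings and without each library in turn. Of 100 values under the other settings 4 lost a call and none gained one, and of 120 values without 1 library 21 lost a call and none gained one. The losses were in Musk, Ufsp1 and Ache. Fgfbp1 kept its call throughout. The number of the 10 that passed ran from 1 (without WT 3 or KO 6) to 4 when 1 library was left out. Over all tested genes, calls ran from 194 without KO 6 to 1516 without KO 2, and array weights gave 1174 against 757. Those weights are lower for a library that varies more about its group. They were lowest for KO 1 (0.49), then WT 4 (0.69) and KO 2 (0.80). Of the genes alike in pattern, Atp8b1 changed sign with array weights (-0.0034) and ran from -0.0448 to 0.0974 without 1 library, and Pde2a changed sign with quantile normalization (0.0413) and ran from -0.0471 to 0.0441. Fgf7 changed sign with array weights (-0.00613) and quantile normalization (-0.0078) and ran from -0.0317 to 0.0468 without 1 library. None of these 3 was called. Among list and marker genes, leaving out 1 library ended the call of Ncam1 in 3 of 12 cases (adjusted p up to 0.0616), Flt1 in 6 (0.0828), Cdh15 in 6 (0.0855) and Adipoq in 7 (0.107).

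With the replicate number as a block, 811 genes and 4 of the 10 passed, the same 4. Same-numbered WT and KO libraries did not deviate together: their correlations ran from -0.361 to 0.291, and 1 of 6 WT libraries matched its own number best. The block ended the calls of Runx1 (adjusted p = 0.054), Myh8 (0.0705) and Adipoq (0.0503). Low depth limits Etv4 (16.9 to 59.0 estimated reads), Fgfbp1 in KO (19.0 to 81.3) and Adipoq (2.99 to 21.1).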
